A study of Danio rerio with 6 samples.

Results

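Transcripts of the Tudor domain genes of the germ granule were measured in foxl2l-/- and foxl2l+/+ germ cells of the zebrafish, sorted by EGFP. A list of 10 genes was set by name (tdrd1, tdrd3, tdrd5, tdrd6, tdrd7a, tdrd7b, tdrd9, tdrd12, tdrd15 and tdrkh), and 9 of them were found among the gene names of the 31743 genes in the deposited table. Tdrd15 is listed there under the clone name si:dkeyp-93d12.1 (ENSDARG00000014039), was matched by its identifier in the reference name table, and is described beside the 9. The 3 foxl2l-/- libraries were made from foxl2l:egfp;foxl2l-/- fish and the 3 foxl2l+/+ libraries from foxl2l:egfp;foxl2l+/+ fish. All fish were of the TL strain and 21 days post fertilization, and all carried the foxl2l:egfp reporter, so cells of both genotypes were selected by the activity of that reporter. Each library came from about 300 sorted cells of dissociated trunks, which were amplified with SMART-Seq HT and sequenced. Separate fish or clutches are not named for the replicates, so each p-value reflects library-to-library spread, which may be technical in part.

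Many Tudor domains bind methylated arginines, and in germ cells many Tudor proteins hold Piwi proteins in granules beside the nucleus and the mitochondria. Piwi proteins carry piRNAs, small RNAs that silence transposons, and Tudor proteins serve as scaffolds, helicases and anchors in the making and use of piRNAs. In zebrafish, Tdrd1 is a known partner of the Piwi proteins, and Tdrd6 binds Bucky ball, the organiser of the Balbiani body of the oocyte. Tdrd3 differs from the other genes described, being known in mammals as a partner of topoisomerase 3B and of the fragile X proteins in many tissues.

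Total counts ran from 36292276 to 38405954 in foxl2l-/- libraries and from 25176401 to 39189535 in foxl2l+/+ libraries. The targeted gene, listed as zgc:194189, held 47231, 40067 and 31437 counts in foxl2l-/- replicates 1 to 3, against 17736, 22491 and 17630 counts in foxl2l+/+ replicates 1 to 3. The labels do not say which part of the gene is altered, so these counts are no check on the labelled genotypes. Germ cell markers were ddx4, dazl, piwil1, piwil2, dnd1, nanos3 and ca15b (7 of 7 detected in every library). They took 0.662 to 0.875% of counts in foxl2l-/- and 0.638 to 0.785% in foxl2l+/+ libraries. Somatic gonad markers (13 of 15 detected in every library, with fshr and inha at 0 in some) took 0.00583 to 0.00869% in foxl2l-/- and 0.00201 to 0.00329% in foxl2l+/+ libraries. Markers of muscle, gut and skin (10 of 11 detected in every library, with krt4 at 0 in 1) took 0.00832 to 0.00881% in foxl2l-/- and 0.00436 to 0.00591% in foxl2l+/+ libraries. Blood markers (11 of 12 matched, all 11 detected in every library) took 0.00944 to 0.0116% in foxl2l-/- and 0.00963 to 0.0134% in foxl2l+/+ libraries. The summed shares of the somatic gonad list and of the muscle, gut and skin list were thus higher in every foxl2l-/- library than in any foxl2l+/+ library, but their genes did not move as one. Of 12 somatic gonad genes tested, 1 rose (cyp17a1, 31.9 TPM in foxl2l-/- and 8.21 TPM in foxl2l+/+ cells) and 0 fell. Of 11 muscle, gut and skin genes 3 rose, with log2 fold changes of 3.24 (myl1), 3.44 (krt4) and 1.42 (krt8). Of the same list 1 fell (prss1, -1.87), and the others did not pass. Myl1 averaged 21.2 TPM in foxl2l-/- and 1.90 TPM in foxl2l+/+ cells, and krt4 averaged 1.34 TPM in foxl2l-/- and 0.0993 TPM in foxl2l+/+ cells. Of 11 blood genes, hbaa1 (-3.31), alas2 (-2.11) and slc4a1a (-2.25) of red cells fell on the log2 scale. Ptprc (2.36) and cd74b (2.02) of leukocytes rose. The red cell genes hbba2 (-0.63) and hbaa2 (-0.44) did not pass. Nor did the leukocyte genes cd74a (0.54), mpx (0.38), lyz (-0.53) and spi1b (-0.73). Among the germ cell markers, nanos3 (1.01) rose, and dnd1 (-0.53) and ca15b (-3.20) fell. The germ cell markers ddx4 (-0.35), dazl (0.46), piwil1 (-0.21) and piwil2 (0.18) did not pass. Ca15b averaged 1.51 TPM in foxl2l-/- and 11.7 TPM in foxl2l+/+ cells. The calls of nanos3 and dnd1 moved with the setting, as given below. The part of these marker genes in the differences below was not tested. Foxl2l-/- replicate 3 correlated at 0.944 and 0.952 with the other foxl2l-/- libraries, which correlated at 0.969 with each other, while foxl2l+/+ libraries correlated at 0.951 to 0.954 (Pearson, log2 CPM over tested genes). Its level of several Tudor genes stood apart, so results are given with and without it where it matters.

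Transcripts of tdrd12, tdrd7b and tdrkh were lower in foxl2l-/- cells, and the other 6 Tudor genes did not pass the test. Foxl2l-/- cells averaged 60.4 ± 25.8 CPM of tdrd12, against 178 ± 38.3 CPM in foxl2l+/+ cells, 12.2 ± 2.49 CPM of tdrd7b, against 30.7 ± 7.97 CPM in foxl2l+/+ cells, and 353 ± 29.5 CPM of tdrkh, against 581 ± 86.2 CPM in foxl2l+/+ cells (SD, n = 3 each). CPM here is the count relative to the TMM-scaled library total. Testing 23576 genes together (edgeR, quasi-likelihood F test, Benjamini-Hochberg adjusted p below 0.05), 3 of the 9 genes fell and 0 rose. Across all genes tested, 31.6% were called, 15.7% higher and 15.8% lower, so the share of Tudor genes called in either direction lies near that of all genes. At an unadjusted p under 0.05, 3 were lower and 1 higher (tdrd3). DESeq2, limma-voom and limma-trend on TPM each called 0 Tudor genes higher, beside 18.0, 19.1 and 22.6% of all genes. Library totals in place of TMM scaling called 2 higher, tdrd3 and tdrd9, beside 20.7% of all genes higher and 11.5% lower. The share of all genes called lower was 16.2% with RLE factors, 18.3% with DESeq2, 12.5% with no filter, 15.9% with 10 counts in 3 libraries and 15.6% with the replicate block, and each of these settings called 3 Tudor genes lower. It was 20.0% with limma-voom and 15.5% without foxl2l-/- replicate 3, which each called 4 lower, and 11.2% with limma-trend and 10.8% without foxl2l-/- replicate 2, which each called 2. Without foxl2l-/- replicate 1, 1 Tudor gene (tdrd9) was called higher, beside 12.6% of all genes. The median log2 fold change of the 9 was -0.22, against 0.048 over all genes tested. Under library totals these medians were -0.012 and 0.25, with limma-trend on TPM 0.011 and 0.19, and the median of the 9 was -0.092, -0.11 and -0.44 without foxl2l-/- replicates 1, 2 and 3 and -0.13 without foxl2l+/+ replicate 2. In bulk RNA of a sorted pool, fewer cells that express a gene and less RNA per cell cannot be told apart.

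**Figure D1:**
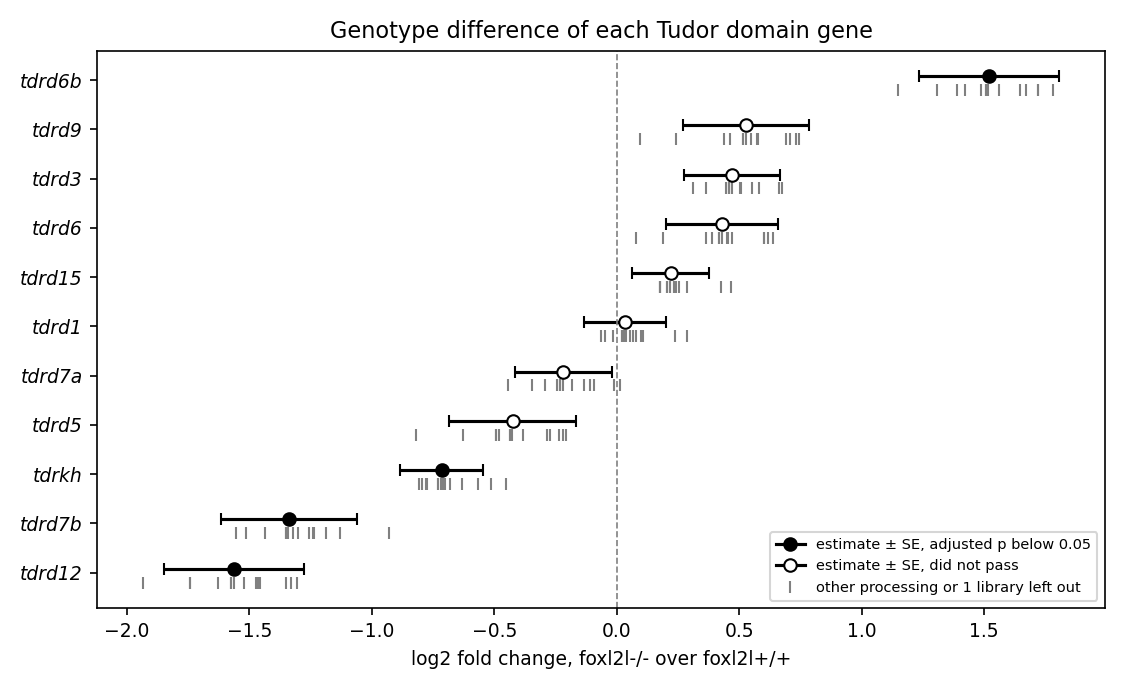
Log2 fold change of each Tudor domain gene, foxl2l-/- over foxl2l+/+, with its standard error (n = 3 libraries each). Filled circles passed an adjusted p of 0.05, and grey ticks give the value under each of the 14 other settings. Tdrd12, tdrd7b and tdrkh lie below 0 in every setting. Tdrd6b, a paralog outside the list, lies above 0 in every setting.

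Tdrd12 and tdrd9 encode the helicase-type Tudor proteins, which in mice act in piRNA production and transposon silencing. Tdrd12 (ENSDARG00000075217, chromosome 25, 37161532 to 37186894, reverse strand, GRCz11) had 36.9, 56.3 and 88.0 CPM in foxl2l-/- replicates 1 to 3, against 134, 204 and 197 CPM in foxl2l+/+ replicates 1 to 3. All 3 foxl2l-/- libraries lay below all 3 foxl2l+/+ libraries, although the highest foxl2l-/- value was 2.39 times the lowest. It fell by 1.56 ± 0.29 on the log2 scale (SE; adjusted p = 0.00151, edgeR). Only 7.21% of tested genes had a lower log2 fold change. With 1 library left out the log2 fold change lay between -1.93 (without foxl2l-/- replicate 3) and -1.30 (without foxl2l-/- replicate 1) and passed each time. In the authors' deposited table the log2 fold change of tdrd12 is -1.52, with an adjusted p of 4.56e-07.

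Tdrd9 (ENSDARG00000013453, chromosome 13, 31402067 to 31423346, forward strand) had 871, 1028 and 1955 CPM in foxl2l-/- replicates 1 to 3, against 931, 825 and 917 CPM in foxl2l+/+ replicates. The genotypes overlapped, with foxl2l-/- replicate 1 inside the foxl2l+/+ range and foxl2l-/- replicate 3 at 2.06 times the mean of its 2 companions. A log2 fold change of 0.53 ± 0.26 did not pass (adjusted p = 0.139 in the same edgeR test). It was 0.094 without foxl2l-/- replicate 3 (adjusted p = 0.684). Without foxl2l-/- replicate 1 it was 0.74 and passed (adjusted p = 0.0342).

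Within each library tdrd12 made up a smaller part of the helicase pair in foxl2l-/- cells. Tdrd12 took 3.69, 4.72 and 3.92% of the summed TPM of tdrd9 and tdrd12 in foxl2l-/- replicates 1 to 3, against 11.5, 18.3 and 16.3% in foxl2l+/+ replicates. TPM is the authors' value per gene length and depth, which allows genes to be set beside each other. The foxl2l-/- libraries lay close together on this scale, foxl2l-/- replicate 3 included, and did not overlap with foxl2l+/+ (two-sided exact permutation p = 0.1, the smallest that 3 against 3 libraries allow). The pairs of genes set beside each other here and below were chosen with the values known.

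Tdrkh encodes the Tudor and KH domain protein of the mitochondrial surface, which in mice is needed for the trimming of piRNA precursors. It had 347, 328 and 386 CPM in foxl2l-/- replicates 1 to 3, against 545, 518 and 679 CPM in foxl2l+/+ replicates. The libraries of the genotypes did not overlap in CPM, and the foxl2l-/- values were close together, with a coefficient of variation of 8.34%. In TPM they overlapped, with foxl2l-/- replicate 3 at 237 TPM and foxl2l+/+ replicate 2 at 232 TPM. Tdrkh (ENSDARG00000053474, chromosome 12, 33561418 to 33582382, reverse strand) fell by 0.72 ± 0.17 on the log2 scale (SE; adjusted p = 0.00744, edgeR). The call ended without foxl2l-/- replicate 2 (log2 fold change -0.63, adjusted p = 0.0514) and with limma-trend on log2(TPM + 1), where the value was -0.45 (adjusted p = 0.0660). Over the 14 alternatives the adjusted p lay between 0.000407 and 0.0660.

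Set against tdrd1, another abundant member that lies on the same chromosome, tdrkh was lower in every foxl2l-/- library. Its TPM was 0.653, 0.605 and 0.610 times that of tdrd1 in foxl2l-/- replicates 1 to 3, against 1.11, 0.834 and 1.22 times in foxl2l+/+ replicates (two-sided exact permutation p = 0.1, the smallest possible). In foxl2l-/- cells tdrkh therefore stood below tdrd1 in each library, and in foxl2l+/+ cells on either side of it. Tdrd1 itself averaged 324 TPM in foxl2l-/- and 263 TPM in foxl2l+/+ cells, so both genes enter this ratio.

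Tdrd7a and tdrd7b are paralogs of each other and the zebrafish counterparts of mammalian Tdrd7, which carries LOTUS and Tudor domains and is a component of germ granules. Tdrd7b (ENSDARG00000077523, chromosome 7, 61906903 to 61962466, forward strand) had 10.4, 11.1 and 15.0 CPM in foxl2l-/- replicates 1 to 3, against 21.6, 34.6 and 36.0 CPM in foxl2l+/+ replicates. All foxl2l-/- libraries lay below all foxl2l+/+ libraries. It fell by 1.34 ± 0.28 on the log2 scale (SE; adjusted p = 0.00331, edgeR), and passed under all 14 alternatives, with values from -1.55 to -0.93.

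Its paralog tdrd7a (ENSDARG00000032808, chromosome 1, 12195700 to 12228116, forward strand) was the far more abundant of the pair. It had 379, 415 and 599 CPM in foxl2l-/- replicates 1 to 3, against 496, 614 and 513 CPM in foxl2l+/+ replicates, so the genotypes overlapped. The difference of -0.22 ± 0.20 on the log2 scale did not pass (adjusted p = 0.435, edgeR). It was -0.44 without foxl2l-/- replicate 3 (adjusted p = 0.0583), and -0.092, -0.11 and -0.13 without foxl2l-/- replicate 1, foxl2l-/- replicate 2 and foxl2l+/+ replicate 2. Tdrd7b took 2.28, 2.22 and 2.09% of the summed TPM of the pair in foxl2l-/- replicates 1 to 3, against 3.58, 4.59 and 5.65% in foxl2l+/+ replicates, with no overlap (two-sided exact permutation p = 0.1). Reads that match both paralogs could have been split between them, since the handling of such reads is not given in the sources used here.

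**Figure D2:**
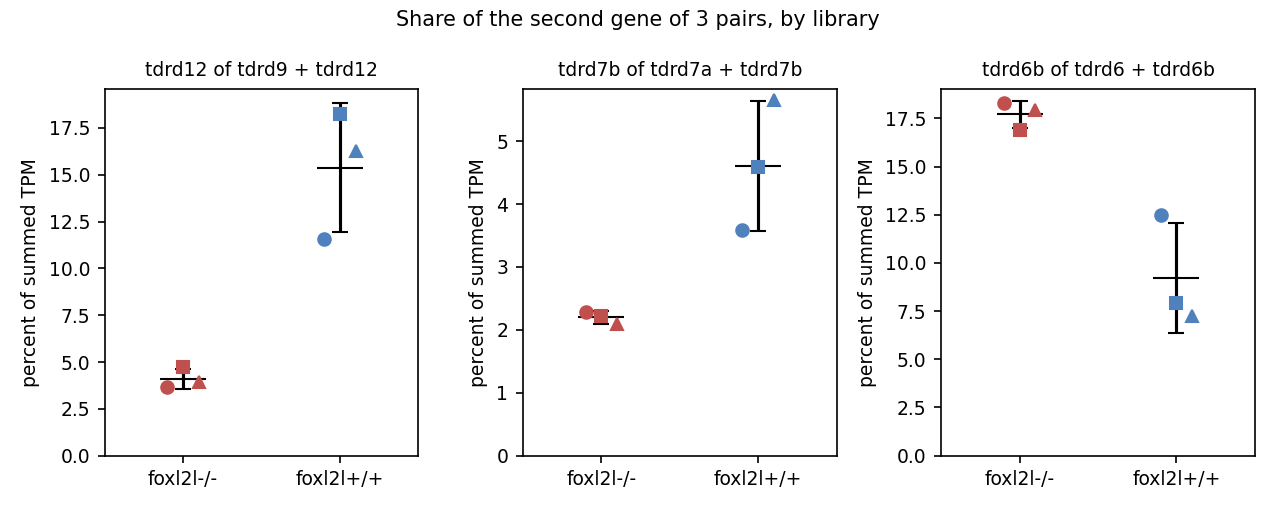
Percent of the summed TPM of a gene pair taken by its second gene, by library, with mean and SD (circles, squares and triangles are replicates 1, 2 and 3, foxl2l-/- at left and foxl2l+/+ at right). Tdrd12 took 3.69 to 4.72% of tdrd9 and tdrd12 in foxl2l-/- and 11.5 to 18.3% in foxl2l+/+ libraries. Tdrd7b was likewise lower in its pair, and tdrd6b was higher in its own.

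Tdrd6, a protein of many Tudor domains and a partner of Bucky ball in zebrafish, did not pass. It had 444, 481 and 851 CPM in foxl2l-/- replicates 1 to 3, against 422, 459 and 438 CPM in foxl2l+/+ replicates. Foxl2l-/- replicate 1 lay within the foxl2l+/+ range and foxl2l-/- replicate 3 at 1.84 times the mean of the other foxl2l-/- libraries. The log2 fold change of 0.43 ± 0.23 did not pass (SE; adjusted p = 0.176, edgeR) and was 0.077 without foxl2l-/- replicate 3. Tdrd6 (ENSDARG00000070052, chromosome 20, 35438300 to 35462226, forward strand) overlaps pla2g7 on the opposite strand, whose counts came to 14.9% of those of tdrd6. The library chemistry does not record strand, so reads from the shared stretch cannot be told apart.

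The reference name table gives tdrd6b for a gene listed under a clone name (ENSDARG00000089954, chromosome 17, 6603691 to 6641548, reverse strand). It is no member of the list and was taken up after its values were seen. It had 87.8, 86.6 and 164 CPM in foxl2l-/- replicates 1 to 3, against 53.1, 34.9 and 30.2 CPM in foxl2l+/+ replicates, with no overlap. It rose by 1.52 ± 0.29 on the log2 scale (SE; adjusted p = 0.00185, edgeR), and passed under all 14 alternatives (1.15 without foxl2l-/- replicate 3). Tdrd6b took 18.3, 16.9 and 17.9% of the summed TPM of tdrd6 and tdrd6b in foxl2l-/- replicates 1 to 3, against 12.5, 7.93 and 7.23% in foxl2l+/+ replicates (two-sided exact permutation p = 0.1).

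Tdrd1 gave the smallest log2 fold change of the 9 genes in absolute value. Tdrd1, which binds both zebrafish Piwi proteins, had 991, 1008 and 1176 CPM in foxl2l-/- replicates 1 to 3, against 913, 1156 and 1034 CPM in foxl2l+/+ replicates. The ranges of the genotypes overlapped, and the log2 fold change was 0.033 ± 0.17 (SE; adjusted p = 0.902, edgeR). Tdrd1 (ENSDARG00000007465) lies on chromosome 12 from 30344076 to 30359540 on the reverse strand.

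Tdrd5, a LOTUS and Tudor domain gene needed in mice for spermatid development and transposon silencing, varied widely among the foxl2l-/- libraries. It had 180, 225 and 394 CPM in foxl2l-/- replicates 1 to 3, against 429, 336 and 307 CPM in foxl2l+/+ replicates. Foxl2l-/- replicates 1 and 2 lay below all foxl2l+/+ libraries, and foxl2l-/- replicate 3 lay among them. Its log2 fold change of -0.43 ± 0.26 did not pass (adjusted p = 0.239, edgeR). Without foxl2l-/- replicate 3 tdrd5 (ENSDARG00000071450, chromosome 22, 17261801 to 17280853, forward strand) had a log2 fold change of -0.82 and passed (adjusted p = 0.00807). Without foxl2l-/- replicate 1 it was -0.21 (adjusted p = 0.582) and without foxl2l-/- replicate 2 it was -0.27 (adjusted p = 0.568). It also passed with limma-voom and quality weights, at -0.63 (adjusted p = 0.0159).

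Tdrd15, listed as si:dkeyp-93d12.1 (chromosome 20, 42537768 to 42561740, forward strand), had 252, 244 and 273 CPM in foxl2l-/- replicates 1 to 3, against 211, 228 and 221 CPM in foxl2l+/+ replicates. Every foxl2l-/- library lay above every foxl2l+/+ library, yet the difference was small, at 0.22 ± 0.16 on the log2 scale, and did not pass (adjusted p = 0.319, edgeR). With limma-trend on log2(TPM + 1) it was 0.46 and lay just inside the threshold (adjusted p = 0.0499).

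Tdrd3 had 58.3, 58.7 and 79.5 CPM in foxl2l-/- replicates 1 to 3, against 50.3, 46.7 and 44.9 CPM in foxl2l+/+ replicates. The genotypes did not overlap, but the log2 fold change of 0.47 ± 0.20 did not pass (SE; adjusted p = 0.0886, edgeR). Under library totals the value was 0.67 and passed (adjusted p = 0.0209), and without foxl2l-/- replicate 3 it was 0.31 (adjusted p = 0.220). Tdrd3 (ENSDARG00000025421, chromosome 11, 42726712 to 42819730, forward strand) shares its span with 6 other annotated genes, on both strands, whose counts summed to 66.1% of its own, so some of its reads may belong to them.

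Non-overlap of the genotypes was about as frequent among the Tudor genes as among all genes. In CPM, 3 of the 9 genes lay entirely lower in foxl2l-/- libraries and 1 entirely higher, while 46.7% of tested genes did not overlap (23.9% higher and 22.8% lower). In TPM, 2 lay entirely lower (tdrd12 and tdrd7b) and 2 entirely higher (tdrd3 and tdrd6), while 47.6% of tested genes did not overlap (31.5% higher and 16.1% lower). TPM is not scaled by TMM, and so stands nearer to library totals.

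**Figure D3:**
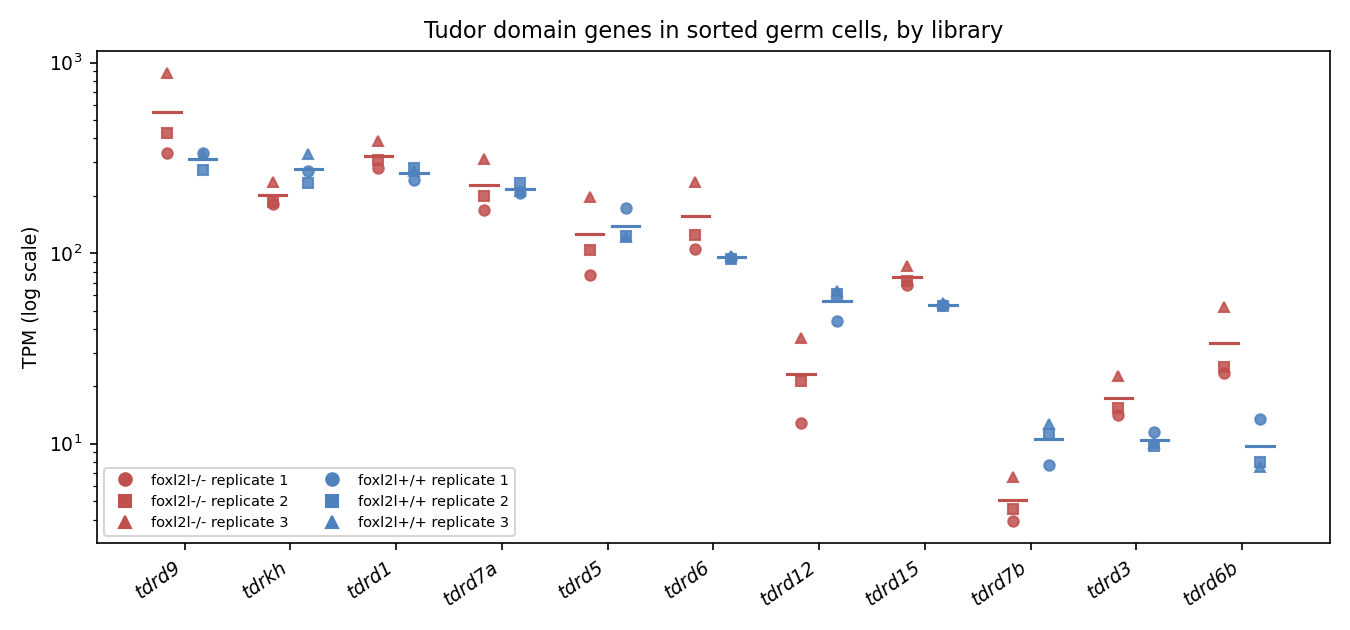
TPM (log axis) of the listed Tudor domain genes and tdrd6b in each library, foxl2l-/- at left and foxl2l+/+ at right of each gene, with lines at the means. Foxl2l-/- replicate 3 (red triangles) is the highest foxl2l-/- library for every gene shown, and tdrd12 and tdrd7b lie apart between the genotypes with foxl2l-/- lower.

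By length-scaled level, tdrd9, tdrd1 and tdrkh were the highest of the set in foxl2l+/+ cells. Tdrd9 averaged 548 ± 292 TPM in foxl2l-/- and 312 ± 35.1 TPM in foxl2l+/+ cells (SD, n = 3 each), tdrd1 averaged 324 ± 56.6 TPM in foxl2l-/- and 263 ± 19.1 TPM in foxl2l+/+ cells, and tdrkh averaged 201 ± 30.5 TPM in foxl2l-/- and 277 ± 49.1 TPM in foxl2l+/+ cells. Among 31743 genes tdrd9 ranked 278th in foxl2l-/- and 605th in foxl2l+/+ cells, and tdrkh ranked 970th in foxl2l-/- and 689th in foxl2l+/+ cells. In foxl2l+/+ cells the order ran tdrd9, tdrkh, tdrd1, tdrd7a, tdrd5, tdrd6, tdrd12, tdrd15, tdrd7b, tdrd3. The library ranges of tdrd9 and tdrkh, tdrkh and tdrd1, tdrd12 and tdrd15, and tdrd7b and tdrd3 overlapped there, and the other neighbours lay apart. In foxl2l-/- cells the order ran tdrd9, tdrd1, tdrd7a, tdrkh, tdrd6, tdrd5, tdrd15, tdrd12, tdrd3, tdrd7b. There the ranges of neighbours lay apart only between tdrd15 and tdrd12 and between tdrd3 and tdrd7b. Tdrd12 averaged 23.3 ± 11.7 TPM in foxl2l-/- and 56.1 ± 10.6 TPM in foxl2l+/+ cells. Tdrd15 averaged 3.22 times the level of tdrd12 in foxl2l-/- cells, while the pair lay side by side in foxl2l+/+ cells. Tdrd7b, at 5.05 ± 1.43 TPM in foxl2l-/- and 10.5 ± 2.55 TPM in foxl2l+/+ cells, was lowest in foxl2l-/- cells.

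The summed level of the 9 genes did not separate the genotypes. It was 1176, 1390 and 2316 TPM in foxl2l-/- replicates 1 to 3, against 1386, 1315 and 1442 TPM in foxl2l+/+ replicates. Foxl2l-/- replicate 3 lay above all other libraries and foxl2l-/- replicate 1 below them. Of the summed TPM with tdrd15 included, tdrd9 took 30.9 ± 5.08% in foxl2l-/- and 21.7 ± 1.78% in foxl2l+/+ libraries, and tdrkh took 12.4 ± 2.40% in foxl2l-/- and 19.2 ± 2.55% in foxl2l+/+ libraries (SD over 3 libraries). Neither share overlapped between the genotypes, tdrd9 being higher and tdrkh lower in foxl2l-/- libraries. This was common in the set, as the shares of tdrd3 and tdrd6 also lay entirely higher and those of tdrd7a, tdrd7b and tdrd12 entirely lower. In TPM itself 47.6% of tested genes did not overlap, and such shares were not taken for other sets of genes. Only the shares of tdrd1, tdrd5 and tdrd15 overlapped. Shares of the same sum depend on each other, so these are not separate results.

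Foxl2l-/- replicate 3 stood above the other foxl2l-/- libraries for some Tudor genes more than for others. Set against the mean of foxl2l-/- replicates 1 and 2 in CPM, it held 2.06 times as much tdrd9, 1.95 times as much tdrd5, 1.89 times as much tdrd12, 1.84 times as much tdrd6 and 1.51 times as much tdrd7a. Tdrkh and tdrd1 stood at 1.14 and 1.18 times, and tdrd15 at 1.10 times. A ratio of at least 1.5 was found for 5 of the 9 Tudor genes and for 18.3% of tested genes. A ratio of at least 2.0 was found for 1 of the 9 (tdrd9) and for 7.82% of tested genes. The median ratio was 1.51 for the 9 and 0.962 for all genes tested. The coefficient of variation of the 9 genes had a median of 25.4% in foxl2l-/- and 11.8% in foxl2l+/+ libraries, while over all genes tested it was 25.5% in foxl2l-/- and 25.1% in foxl2l+/+ libraries. Most of the 9 are abundant, and the genes tested were not matched to them for level, so these medians are not like for like. The summed share of the germ cell markers was also highest in this library among the foxl2l-/- ones, at 0.875% of counts against 0.662 and 0.704%. Not every marker followed, as dazl had 1030, 887 and 906 TPM and nanos3 had 28.2, 35.8 and 31.0 TPM in foxl2l-/- replicates 1 to 3. Each of the other germ cell markers had its highest foxl2l-/- TPM in replicate 3. The part of the markers in these ratios was not tested. These markers also belong to the piRNA and germ plasm lists below, so their share is no measure apart from those lists.

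Piwi proteins and other factors of the piRNA pathway mostly did not pass either. Of 10 genes tested, 1 rose (gpat2), 1 fell (henmt1) and 8 did not pass, with a median log2 fold change of 0.047, beside 31.6% of all genes called. The counts moved with the setting, to 4 higher and 0 lower with limma-trend on TPM, 2 higher and 3 lower with limma-voom, 2 higher and 0 lower under library totals or with no filter, and 0 higher and 1 lower with RLE factors or DESeq2. The shares over all genes moved too. They were 22.6% higher and 11.2% lower with limma-trend, 19.1% and 20.0% with limma-voom, and 20.7% and 11.5% under library totals. Leaving out 1 library gave 0 to 1 higher and 0 to 1 lower. Piwil1 (ziwi) averaged 1189 TPM in foxl2l-/- and 1134 TPM in foxl2l+/+ cells, piwil2 (zili) averaged 218 TPM in foxl2l-/- and 158 TPM in foxl2l+/+ cells, and the Vasa helicase gene ddx4 averaged 1247 TPM in foxl2l-/- and 1320 TPM in foxl2l+/+ cells. These TPM means are not TMM-scaled, while the log2 fold changes are, and for piwil1 they differ in direction. The log2 fold changes of piwil1, piwil2 and ddx4 were -0.21 ± 0.21, 0.18 ± 0.22 and -0.35 ± 0.16 (SE). They gave adjusted p-values of 0.482, 0.576 and 0.127 (edgeR), and ddx4 was called lower with limma-voom (-0.39, adjusted p = 0.0132). Gpat2, a mitochondrial acyltransferase known in mice for a role in piRNA biogenesis, had 216, 241 and 350 TPM in foxl2l-/- replicates 1 to 3, against 150, 136 and 181 TPM in foxl2l+/+ replicates. Its rise of 0.52 ± 0.18 (adjusted p = 0.0471) ended under 7 of 14 alternatives. Henmt1, the methyltransferase of piRNA ends, averaged 134 ± 4.57 TPM in foxl2l-/- and 158 ± 10.2 TPM in foxl2l+/+ cells, and its log2 fold change of -0.49 ± 0.16 (adjusted p = 0.0351) ended under 8 of 14. The prolyl isomerase family gene fkbp6 (0.52, adjusted p = 0.0641) did not pass, but was called higher under 6 of 14 alternatives, among them library totals (0.71, adjusted p = 0.0153) and limma-trend (0.78, adjusted p = 0.00822).

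Among 3 genes for the arginine methylation that many Tudor domains recognise, 1 fell, beside 31.6% of all genes called and 15.8% lower. Prmt5, which encodes the methyltransferase itself, had 77.8, 93.5 and 124 TPM in foxl2l-/- replicates 1 to 3, against 136, 97.5 and 122 TPM in foxl2l+/+ replicates, so the libraries overlapped in TPM. Its log2 fold change of -0.53 ± 0.18 (adjusted p = 0.0425, edgeR) ended under 7 of 14 alternatives. Clns1a (-0.23) and riok1 (0.068), which encode its adaptor proteins, did not pass. Of the 4 partners of TDRD3, 1 fell (fxr2), beside the same shares of all genes. With so few genes, neither count stands out from those shares. Fxr2 averaged 9.41 ± 2.81 TPM in foxl2l-/- and 16.3 ± 2.12 TPM in foxl2l+/+ cells, with a log2 fold change of -1.06 ± 0.24 (adjusted p = 0.00544, edgeR). Top3b (-0.38), fmr1 (-0.16) and fxr1 (-0.0022) did not pass.

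The list of germ plasm and Balbiani body genes, to which the partner of Tdrd6 belongs, had 7 of 12 genes lower and 1 higher. Across all genes tested, 15.8% were lower and 15.7% higher. The median log2 fold change of the list was -1.10. Library totals and limma-trend on TPM each gave 6 lower and 2 higher. Over all genes, library totals gave 11.5% lower and 20.7% higher, and limma-trend gave 11.2% lower and 22.6% higher. Without foxl2l-/- replicate 2, 0 were higher. Buc, which encodes Bucky ball, had 15.0, 12.4 and 19.3 TPM in foxl2l-/- replicates 1 to 3, against 300.4, 172 and 207 TPM in foxl2l+/+ replicates. It fell by 4.11 ± 0.24 on the log2 scale, and the RNA-binding protein genes rbpms2b and rbpms2a fell by 4.37 ± 0.21 and 2.63 ± 0.22 (SE; edgeR adjusted p = 5.00e-07, 1.77e-07 and 6.63e-06). Nanos3, the 1 gene that rose (1.01 ± 0.28, adjusted p = 0.0163), is named after its values were seen, and it no longer passed when foxl2l-/- replicate 2 was left out (0.94, adjusted p = 0.0661) or when foxl2l+/+ replicate 3 was (0.86, adjusted p = 0.0587). Dnd1 (-0.53, adjusted p = 0.0387) lost its call under 7 of 14 alternatives, and dazl (0.46) did not pass but was called higher under 5 of 14. Tdrd6 transcripts, with 106, 124 and 237 TPM in foxl2l-/- replicates 1 to 3 and 94.6, 93.6 and 96.7 TPM in foxl2l+/+ replicates, lay higher in foxl2l-/- libraries in TPM, while in CPM the genotypes overlapped.

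**Figure D4:**
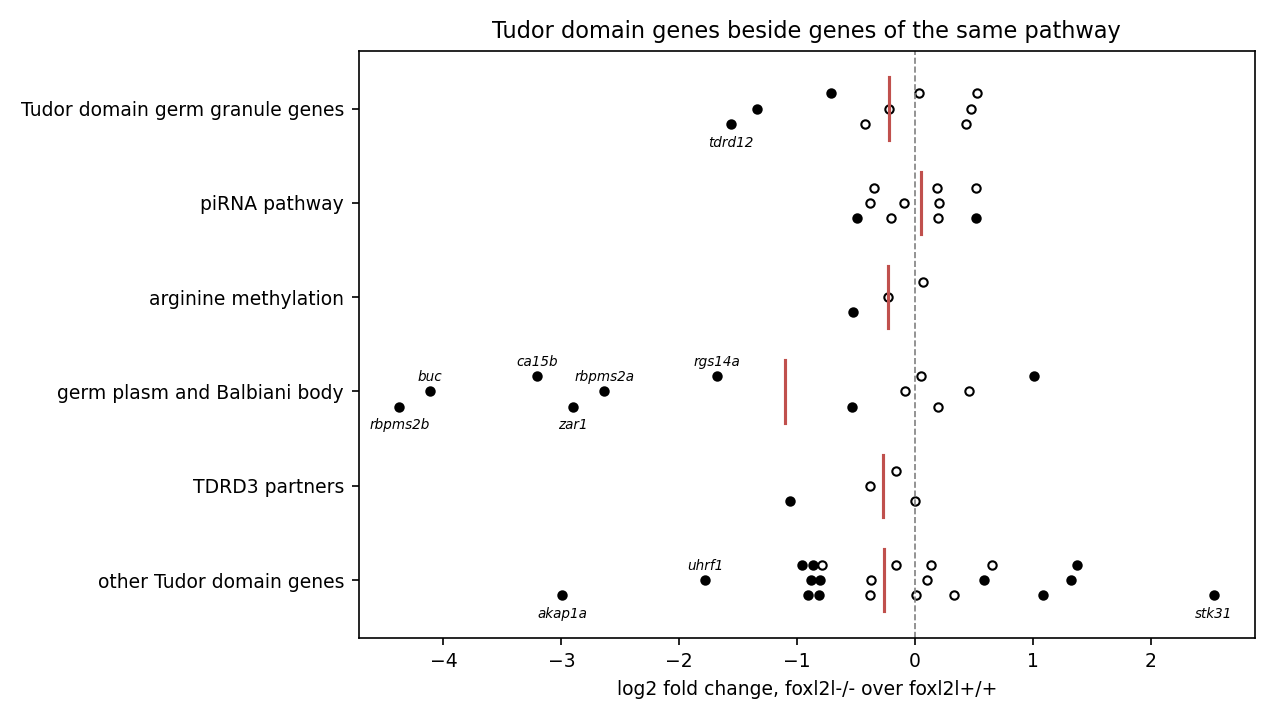
Log2 fold change, foxl2l-/- over foxl2l+/+, of each tested gene in the Tudor list and in 5 lists of the same pathway or domain (filled circles passed an adjusted p of 0.05, red lines are medians). The Tudor genes span -1.56 to 0.53, while the germ plasm list reaches -4.37 and the other Tudor domain genes run from -2.99 to 2.54.

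Of 22 other Tudor domain genes tested, 8 fell and 5 rose, with a median log2 fold change of -0.27, beside 15.8% of all genes lower and 15.7% higher. With limma-trend on TPM 4 were lower and 5 higher (median -0.0089), and under library totals 7 were lower and 6 higher (median -0.062). The shares over all genes were 11.2% lower and 22.6% higher with limma-trend, and 11.5% lower and 20.7% higher under library totals. Without foxl2l+/+ replicate 3, 8 were lower and 3 higher. Stk31, a Tudor and kinase domain gene of mammalian germ cells, had 216, 164 and 230 TPM in foxl2l-/- replicates 1 to 3, against 38.8, 23.0 and 27.0 TPM in foxl2l+/+ replicates, and rose by 2.54 ± 0.22 on the log2 scale (SE; adjusted p = 7.79e-06, edgeR). Akap1a, whose product anchors protein kinase A at mitochondria, had 24.3, 28.4 and 41.4 TPM in foxl2l-/- replicates, against 184, 238 and 196 TPM in foxl2l+/+ replicates, and fell by 2.99 ± 0.22 (adjusted p = 2.08e-06). Uhrf1, a reader of chromatin in DNA methylation maintenance, fell by 1.78 ± 0.23, and the splicing factor gene smndc1 fell by 0.81 ± 0.16. The survival motor neuron gene smn1 (-0.37) did not pass. In TPM the genotypes did not overlap for stk31, akap1a, uhrf1 or smndc1 and overlapped for smn1, while 47.6% of tested genes did not overlap. Stk31, akap1a and uhrf1 were named for their small p-values in these same libraries, so their separation is no further support.

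Among 9095 named genes with at least 10 CPM, those with profiles nearest to the 3 called Tudor genes were sought by the root mean square distance of centred log2 CPM over the 6 libraries. Nearest to tdrd12 were znf1007, synrg and atg9b, at distances of 0.129, 0.159 and 0.167. Nearest to tdrd7b were ehbp1, arid2 and cacna2d3, at 0.0679, 0.0967 and 0.0968. Nearest to tdrkh were flot1b, rcc2 and abcg2c, at 0.0468, 0.0659 and 0.0696. With 6 libraries in 2 genotypes, such nearness rests largely on the genotype difference and is given as a description.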

How the data were processed

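RNA was sequenced from sorted EGFP-positive germ cells, 3 foxl2l-/- and 3 foxl2l+/+ libraries. Per the file headers, the authors deposited total counts per gene, which are whole numbers here, and TPM, a level scaled by gene length and depth. Their table also gives their own log2 fold change and FDR-adjusted p-value. The submitters' processing notes name GRCz11 and bcl2fastq. The sources used here name no aligner, counter or annotation. Another 12 per-library columns were not used. Counts of 23576 of 31743 genes passed filterByExpr, the 9 Tudor genes found by name among them. They were scaled by TMM and tested in R 4.3.3 with edgeR 4.0.16 (glmQLFit and glmQLFTest, adjusted p by Benjamini-Hochberg, threshold 0.05). Alternatives were RLE factors, library totals, DESeq2 1.42.0, limma 3.58.1 (voom with quality weights, and trend on log2(TPM + 1)), no filter, 10 counts in 3 libraries, a block for the replicate number, and leaving out each library. The edgeR steps were tested on simulated counts in which few genes changed, equally in both directions, while 31.6% of genes were called here. The other methods and the gene pair ratios were not simulated. Amplification without molecular identifiers means that read depth overstates the molecules sampled. From each companion list the 3 genes with the smallest p, the 2 with the highest TPM and the known Tudor partners were named, and nearest profiles were sought among genes whose name is not a clone name. Listed genes with no match were not analysed here. The members and lists were chosen with earlier results of these data known.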

Additional observations from a re-analysis of the deposited data

How the results depend on the processing

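The 3 lower calls (tdrd12, tdrd7b and tdrkh) remained 3 under RLE factors, library totals, DESeq2, both other filters and the replicate block, and ranged from 2 to 4 when 1 library was left out. They were 4 with limma-voom and 2 with limma-trend on TPM. The count of higher calls, 0, became 2 under library totals and ranged from 0 to 1 without 1 library. No alternative moved the counts over all genes, 3710 higher and 3733 lower, by more than 1.5 times. Limma-trend on TPM gave 5326 higher and 2652 lower, and library totals gave 4882 higher and 2723 lower. Some log2 fold changes near 0 changed sign, and none of these genes passed under any of the 14 alternatives. Tdrd1 gave -0.015 with limma-voom and ranged from -0.065 to 0.11 without 1 library, and tdrd7a gave 0.011 with limma-trend. Piwil1 gave 0.036 and clns1a 0.021 with limma-trend, fmr1 gave 0.044 under library totals and 0.10 with limma-trend, and piwil2 gave -0.012 with limma-voom and ranged from -0.15 to 0.37 without 1 library. Fxr1 gave 0.20, 0.23 and 0.036 under library totals, limma-trend and no filter, and ranged from -0.24 to 0.16 without 1 library. Riok1 ranged from -0.048 to 0.16 without 1 library, and setdb1b gave 0.047 and 0.085 under library totals and limma-trend. Library totals leave out the TMM factors. These factors were 1.04, 1.10 and 1.07 in foxl2l-/- replicates 1 to 3, against 0.947, 0.907 and 0.943 in foxl2l+/+ replicates. Without them the median log2 fold change over all genes tested was 0.25, against 0.048 with TMM scaling, so values under library totals lay higher in general. The cause of the other changes was not tested. The genotypes share replicate numbers 1 to 3, but over all tested genes same-numbered libraries did not deviate together (correlations of -0.038, 0.050 and 0.037). A pairing that touches few genes would not show in these values, and fish or clutches are not named for the replicates. With the replicate block 3529 genes were higher and 3670 lower, and 3 Tudor genes were lower and 0 higher. With 3 libraries a genotype, smaller differences such as those of tdrd3, tdrd6 and tdrd9 were not settled at this depth and spread.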

Other observations

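The other Tudor domain genes named here were chosen after their values were seen. Akap1b averaged 36.5 ± 15.0 TPM in foxl2l-/- and 14.2 ± 1.78 TPM in foxl2l+/+ cells (SD, n = 3 each) and rose by 1.08 ± 0.23 on the log2 scale (SE; adjusted p = 0.00374, edgeR), whereas its paralog akap1a fell. In TPM the libraries of the genotypes did not overlap for either gene, as for 47.6% of tested genes. Setdb1a, a histone H3 lysine methyltransferase gene, averaged 11.7 ± 4.18 TPM in foxl2l-/- and 18.0 ± 1.11 TPM in foxl2l+/+ cells and fell by 0.90 ± 0.23 (adjusted p = 0.00964, edgeR), a call that ended with limma-trend on TPM (-0.64, adjusted p = 0.0965). Setdb1b averaged 46.5 ± 11.8 TPM in foxl2l-/- and 43.0 ± 2.84 TPM in foxl2l+/+ cells, without TMM scaling. From TMM-scaled counts its log2 fold change was of the other sign (-0.16) and did not pass. The difference between the paralogs was not tested. Tp53bp1, which encodes a DNA damage response protein, had 20.6, 38.8 and 73.9 TPM in foxl2l-/- replicates 1 to 3, against 12.1, 15.6 and 13.9 TPM in foxl2l+/+ replicates, and rose by 1.38 ± 0.32 (adjusted p = 0.00683, edgeR), with foxl2l-/- replicate 3 the highest. Without that library the rise was 0.88 (adjusted p = 0.0197).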
